A study of Sus scrofa with 2 samples.

Results

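SOX proteins are transcription factors that bind DNA through a high-mobility-group box related to that of SRY. The family set for this description was SOX2, SOX4, SOX5, SOX6, SOX8, SOX9, SOX10, SOX11, SOX17 and SOX18, 10 genes in all. A row of the deposited table was taken when its name was a member's symbol, or when an uncharacterised locus was described as a SOX factor of that number, and rows of 1 gene were summed. This gave 11 rows for 8 of the 10 genes, out of 21440 genes in the table. SOX8 and SOX18 had no row under this rule and were not analysed here. One of the SOX6 rows is named with a hyphen and was counted as SOX6.

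RNA was sequenced from frozen brain and frozen liver of Rongchang pigs (Sus scrofa), a Chinese domestic breed, with 1 library per tissue. No treatment or genotype is named, and the labels give neither age, sex nor brain region, nor whether both tissues came from 1 animal. The titles of both samples carry the same lane number, 3, and the same barcode number, 6. Total counts were 23796843 for brain and 31724498 for liver. All 14 brain reference transcripts, such as STMN2 and MBP, were 4-fold or more higher in the library labelled brain, and all 12 liver reference transcripts, such as ALB, in the library labelled liver.

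SOX factors act in groups of close relatives, and a group often shares a DNA site and works with partner factors of the same cell. SoxB1 factors such as SOX2 keep neural stem cells undifferentiated and remain on in astrocytes. SoxC factors (SOX4, SOX11, SOX12) act in young neurons, and SoxD factors (SOX5, SOX6, SOX13) in cortical neurons and in the timing of oligodendrocyte development. SoxE factors (SOX8, SOX9, SOX10) set up glia, with SOX10 needed for myelinating oligodendrocytes and SOX9 present in astrocytes and, in liver, in bile duct cells. SoxF factors (SOX7, SOX17, SOX18) act in endothelium.

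The comparison between brain and liver asked in which tissue each SOX gene was the more abundant. SOX2, SOX11 and SOX4 were called higher in brain by the 4-fold rule below, which adds 1 CPM to each library. SOX10 and SOX9 were on the brain side and were not called by that rule. Folds of single genes further below are without the added CPM, and the share of all genes with such folds above 4 was not computed. SOX6 was on the brain side by less, and SOX5 and SOX17 were at nearly equal levels in both libraries. None of the 8 was 4-fold or more higher in liver. Levels are counts per 1000000 (CPM) scaled with TMM, a scaling that balances the bulk of genes between libraries. The log2 ratio is brain over liver of scaled CPM with 1 CPM added to each, and a gene was called at a log2 ratio of 2 or -2, if it reached 1 CPM in at least 1 library. All 8 genes reached it. Calls higher in brain made up 14.6% of the 15566 genes tested and calls higher in liver 11.4%, and among the SOX genes they were 3 of 8 and 0 of 8. The median log2 ratio was 1.79 over the 8 SOX genes and 0.02 over all genes tested. With 1 library per tissue no test is possible, there is no replicate check, and the 95% intervals below are exact and cover counting error only.

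**Figure D1:**
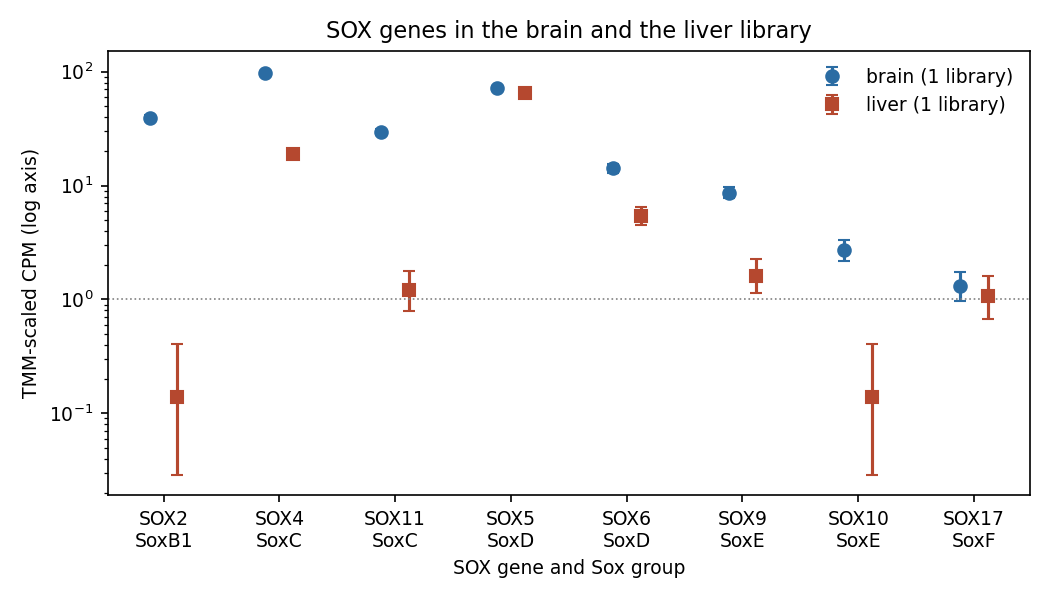
TMM-scaled CPM (log axis) of the 8 SOX genes in the brain library (circles) and the liver library (squares). Bars are exact Poisson 95% intervals of the count, and the dotted line marks 1 CPM. SOX2 stood at 39.1 CPM in brain against 0.139 in liver, while the points of SOX5 and of SOX17 lie almost level.

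SOX2, the stem cell factor of the SoxB1 group, had 1367 counts in brain and 3 in liver, equal to 39.1 and 0.139 CPM. It was the member with the widest gap, a 282-fold difference with an interval of 96.3 to 1368. Its log2 ratio of 5.14 ranked 352 among the 15566 genes tested. The 3 liver counts were 0.219% of the brain count (0.0452 to 0.643%). Across the 14 brain reference transcripts the median of that percentage was 0.0459, and BCAN had 0 counts in liver. In mammals SOX2 lies inside a long noncoding transcript, and whether reads of that transcript entered this row was not tested. The row stands on chromosome 13 of the build Sscrofa10.2.

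The relatives of SOX2 were scarcer. SOX21, a SoxB2 factor that opposes SOX2 in neural progenitors, had 181 counts in brain and 0 in liver, at least a 37.3-fold difference against a floor of 3 liver counts. SOX3, another SoxB1 gene, had 2 counts in brain and 1 in liver, and SOX14 had 1 and 0, both too few for a comparison. SOX1 had no row.

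Both SoxC members were higher in brain but by different amounts. SOX4 had 3428 counts in brain and 406 in liver, equal to 98.1 and 18.8 CPM, a 5.22-fold difference (4.71 to 5.80). SOX11 had 1025 counts in brain and 26 in liver, equal to 29.3 and 1.20 CPM, a 24.4-fold difference (16.5 to 37.5). The intervals of the SOX4 and SOX11 folds do not overlap. SOX12, the remaining SoxC gene, had 218 and 5 counts and a fold of 27.0 (11.4 to 83.9), which overlaps that of SOX11. Of the 3 SoxC genes, SOX4 had the largest share of its brain count in liver, 11.8% against 2.54% for SOX11 and 2.29% for SOX12. SOX4 is on chromosome 7, SOX11 on chromosome 3 and SOX12 on chromosome 17.

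Levels of different genes can be set side by side only per length. The deposited gene length spans introns, so this was done for SOX genes known to have none. In brain, SOX2 stood at 40.8 CPM per kilobase (38.6 to 43.0), SOX4 at 30.7 (29.7 to 31.8) and SOX11 at 10.4 (9.78 to 11.1). SOX12 followed at 6.96 (6.06 to 7.94) and SOX21 at 3.25 (2.80 to 3.76), and no neighbours in this order had overlapping counting intervals. In liver, SOX4 was highest at 5.89 CPM per kilobase (5.33 to 6.49). SOX11 at 0.427, SOX12 at 0.258 and SOX2 at 0.145 came next, and their liver intervals all overlap. The deposited lengths were 960 bp for SOX2, 897 bp for SOX12, 3192 bp for SOX4 and 2818 bp for SOX11, and how much untranslated sequence each holds is not given, so the brain order may change with other gene models.

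The SoxD genes differed less between the libraries. SOX5 had 2492 counts in brain and 1417 in liver, equal to 71.3 and 65.6 CPM, a 1.09-fold difference (1.02 to 1.16). Scaled by plain library size the same counts give 2.34-fold. Its liver count was 56.9% of its brain count, the largest such share among the 8 genes. SOX6 had 494 and 117 counts, equal to 14.1 and 5.41 CPM, a 2.61-fold difference (2.13 to 3.22). SOX13 had 117 and 89 counts, and its fold of 0.813 has an interval that holds 1 (0.612 to 1.08). Its log2 ratio was -0.23 with TMM and 0.64 with plain library size, so its direction depends on the scaling. The intervals of SOX5 and SOX6 do not overlap, and those of SOX5 and SOX13 do.

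SOX6 has 3 rows on chromosome 2, and these did not give 1 value. The first had 84 brain and 18 liver counts (2.89-fold, 1.72 to 5.10), the second 225 and 34 (4.09-fold, 2.85 to 6.06). The row named with a hyphen had 185 and 65 (1.76-fold, 1.32 to 2.37). The intervals of the second and the hyphenated row, the highest and lowest of the 3, do not overlap, while that of the first overlaps both. The highest and lowest rows thus differed in their brain to liver ratio beyond counting error. Whether the 3 rows are separate pieces of the gene was not tested. Without the hyphenated row the log2 ratio of SOX6 was 1.53 in place of 1.24, an alternative chosen after the data were seen. SOX5 and SOX6 span 377404 bp and up to 164536 bp per row, and whether reads within introns were counted is not given.

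The SoxE genes were on the brain side. SOX9 had 302 counts in brain and 35 in liver, equal to 8.65 and 1.62 CPM, a 5.34-fold difference (3.75 to 7.81). SOX10 had 94 and 3 counts, equal to 2.69 and 0.139 CPM, a 19.4-fold difference (6.43 to 95.7). The 2 folds have overlapping intervals. Neither was called, because 1 CPM was added to both libraries. Their log2 ratios were 1.88 and 1.70, just under 2, and 2.35 and 3.55 with a pseudocount of 0.1.

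SOX10 has 2 rows on chromosome 5, with 55 and 39 counts in brain and 2 and 1 in liver. The folds of the 2 rows were 17.0 (4.49 to 144) and 24.1 (4.08 to 977). Beside them the rows described as MICAL-like 1 and as an RNA polymerase subunit also occur a second time. How reads that align to both copies were counted is not given, and the effect of the second copy on the SOX10 level was not tested.

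SOX17, the only SoxF member with a row, is a factor of endothelium and of endoderm. It had 46 counts in brain and 23 in liver, equal to 1.32 and 1.06 CPM, a 1.24-fold difference whose interval holds 1 (0.735 to 2.14). These counts leave room for a difference of up to 2.14-fold toward brain or 1.36-fold toward liver from counting error alone. SOX7, its relative, had 3 counts in brain and 14 in liver, 7.54-fold higher in liver (2.11 to 40.9), below 1 CPM in both libraries. With plain library size this was 3.50-fold (0.977 to 19.0), an interval that holds 1. The SOX7 and SOX17 intervals, on the same scaling, do not overlap.

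Of the SOX genes outside these groups, SOX15 had 22 counts in brain and 31 in liver, a 2.28-fold difference toward liver (1.28 to 4.13). With plain library size its log2 ratio went from -0.58 to -0.04. SOX30, known from the testis, had 3 and 2 counts, and SRY, the founding member on the Y chromosome, had no row.

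**Figure D2:**
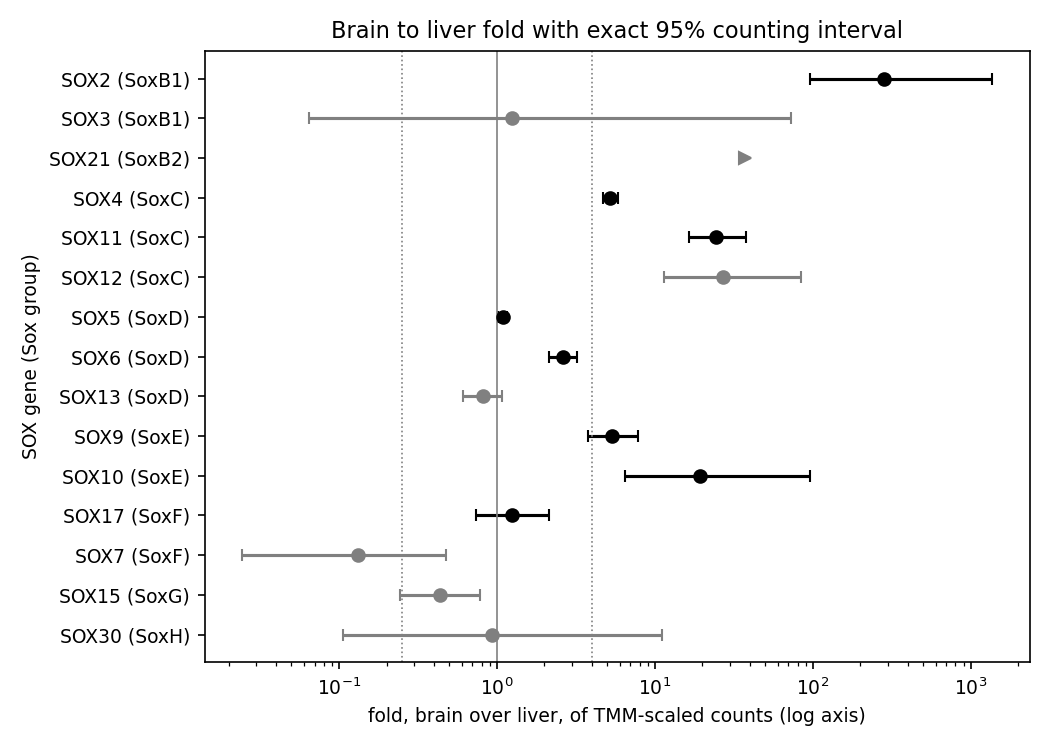
Fold, brain over liver, of TMM-scaled counts (log axis) for SOX genes with a row, grouped by Sox group, with exact 95% counting intervals. Members are black, other SOX genes grey, the arrowhead of SOX21 is a lower bound, SOX14 is left out for its 1 count, and dotted lines mark 4-fold either way. SOX2 lies farthest to the right at 282-fold, and SOX7 farthest to the left.

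Summed over the 8 genes, SOX transcripts came to 264.7 CPM in brain and 93.9 in liver, a 2.82-fold difference (2.69 to 2.96). Without SOX5 the sums were 193 and 28.4 CPM, a 6.82-fold difference (6.28 to 7.42). On this scale, which is not corrected for length, most SOX counts in liver sat in the SOX5 row, while SOX2 and SOX10 had 3 counts each there.

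The scaling sets where the line of no difference lies. With plain library size the median log2 ratio of all genes was 0.98, against 0.02 with TMM. That scaling also moved the share of calls that were higher in brain from 56.3% to 80.0%. The 8 log2 ratios then ranged from 0.77 for SOX17 to 5.74 for SOX2. SOX6 (2.22), SOX9 (2.70) and SOX10 (2.18) passed 2, so that 6 of the 8 were called. Over all genes, 3820 of 15816 tested were called in brain with that scaling. SOX5 was at 1.21. Relative to the shift of all genes, SOX5 and SOX17 stayed close to the median gene.

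**Figure D3:**
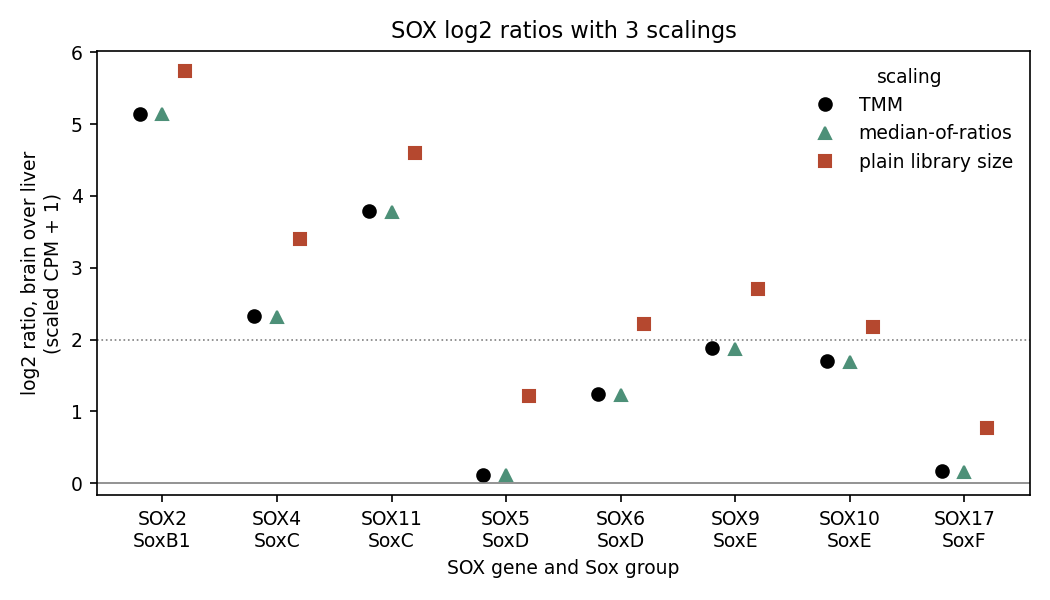
Log2 ratio, brain over liver, of the 8 SOX genes with TMM (circles), median-of-ratios scaling (triangles) and plain library size (squares), with the dotted line at 2. TMM and median-of-ratios points coincide, and plain library size lifts SOX6, SOX9 and SOX10 above the line.

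Partners, targets and marker genes of the cells in which each Sox group acts were then described from 8 lists of related genes. These are whole-tissue libraries, so fewer cells of a type and less RNA per cell cannot be told apart. Genes in parentheses carry their log2 ratio, brain over liver.

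Most neural progenitor genes and SOX2 partners lay with SOX2. Of 9 that passed 1 CPM, 6 were 4-fold or more higher in brain and 0 in liver (median 3.18). POU3F2 (6.31), a POU factor that pairs with SOX2, was at 96.8 CPM in brain with 5 counts in liver. FABP7 (8.23), a fatty acid binding protein of radial glia, and LHX2 (3.18), a forebrain factor, were also called, while the chromatin remodeler CHD7 was near 0 (-0.18 under TMM, 0.90 under plain library size). The progenitor genes NES (1.01) and HES1 (-0.66 under TMM, 0.34 under plain library size), named after their values were seen, were not called.

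Most genes of the young neuron list lay with the SoxC genes. Of 8 that passed, 7 were higher in brain by 4-fold or more (median 3.19). STMN2 (10.44), a microtubule regulator that is also 1 of the brain reference transcripts, and the adhesion molecule NCAM1 (7.96) led. DCX (2.73) and NEUROD1 (2.01) were called by less. TEAD2 (-0.23 under TMM, 0.62 under plain library size) was not called. These 3 were named after their values were seen. STMN1 (2.47), another microtubule regulator, kept 276.7 CPM in liver, and drebrin DBN1, an actin-binding protein, was at 3.81. For SoxD, 5 of 7 cortical neuron genes were called in brain and 0 in liver (median 3.62), and 7 of 7 with plain library size. They included BCL11A (5.92), TBR1 (4.78) and FEZF2 (3.84), factors of cortical projection neurons, and PVALB (3.62), a calcium-binding protein of interneurons. The list genes not called were BCL11B (1.48) and LHX6 (1.42), both named after their values were seen. The SoxD genes did not lie with this list. SOX6 (1.24), SOX5 (0.12) and SOX13 (-0.23) were below its median under TMM, and none was called.

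Oligodendrocyte genes linked to SOX10 were mostly higher in brain. Of 17 that passed, 10 were called in brain and 1 in liver (median 2.69). The myelin genes MOBP (9.61) and MBP (6.92) reached 1035 and 1486 CPM in brain. The list's other abundant genes differed, with GJB1 (-7.49), a gap junction gene that hepatocytes also use, at 616.7 CPM in liver, and the receptor ERBB3 at -0.80 under TMM and 0.30 under plain library size. Its lineage factors, named after their values were seen, were divided. OLIG1 (3.18), OLIG2 (3.09) and NKX2-2 (3.41) were called in brain, with 2, 0 and 0 counts in liver, while MYRF (0.65) and ZNF24 (-1.32) were not called, nor was the progenitor receptor PDGFRA (0.80).

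For SOX9, a brain list and a liver list were read. Of 13 astrocyte genes, 8 were called in brain and 2 in liver (median 4.10, and 3.91 with AQP4, at 0 in liver, put at the floor). SPARCL1 (6.38), a secreted matrix protein, and GFAP (6.31), the astrocyte filament, were far higher in brain. ALDH1L1 (-4.92), a folate enzyme that liver also makes, and FGFR3 (-2.45) were higher in liver, and FGFR3 dropped below the call under plain library size (-1.50). For NDRG2 the ratio was -0.91 under TMM and turned to 0.20 under plain library size. The list's NFI transcription factors, named after their values were seen, were divided. NFIX (2.34) was called in brain and NFIB (1.99) was not, while NFIA was at -0.67 under TMM and 0.43 under plain library size. Of 14 bile duct genes, 0 were called in brain and 7 in liver (median -2.07), and 1 and 5 with plain library size. CLDN4 (-5.11), a tight junction gene, and ONECUT1 (-5.20), a factor shared with hepatocytes, were higher in liver. SLC4A2 (-2.34), an anion exchanger, was at -1.29 with plain library size, and osteopontin SPP1 was at 0.46. The bile duct keratins, named after their values were seen, differed from each other. KRT7 had 27 counts in liver and 0 in brain, while KRT19 had 346 in liver and 666 in brain (0.24). Neither was called.

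The endothelial genes were divided, with a median on the other side from the neural lists. Of 21 that passed, 9 were called in liver and 1 in brain (median -1.23), and 5 and 1 with plain library size (median -0.15). KDR (-3.03) and PECAM1 (-2.72), pan-endothelial genes, were at -1.95 and -1.63 with plain library size. Other general endothelial genes, named after their values were seen, did not all follow. TEK (-2.98) was called in liver, while ERG (-0.49), VWF (-0.16), FLT1 (-0.09) and FLI1 (0.55) were not called. STAB2 (-5.88), a scavenger receptor, and the lectin CLEC4G (-6.41, with 0 counts in brain), both of liver sinusoidal endothelium, were higher in liver under both scalings. The list's other sinusoidal genes, LYVE1 (-4.31), FLT4 (-4.02) and STAB1 (-2.8), named after their values were seen, were also called in liver. STAB1 dropped below the call with plain library size (-1.75). CLDN5 (2.74), a tight junction gene of the blood-brain barrier, was the 1 called in brain. SOX17, at 0.17, was higher than the median of this list and was not called. That median depends on how many sinusoidal genes the list holds, and it was not computed without them.

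Hepatocyte factors gave the contrast. All 9 were 4-fold or more higher in liver (median -5.29), among them NR1H4 (-7.35), the bile acid receptor, HNF4A (-6.40), NR5A2 (-5.63) and CEBPA (-4.19). None of the 8 SOX members was on the liver side. Among the other SOX genes, SOX7 (-0.60, below 1 CPM), SOX15 (-0.58) and SOX13 (-0.23) leaned to liver under TMM without being called.

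**Figure D4:**
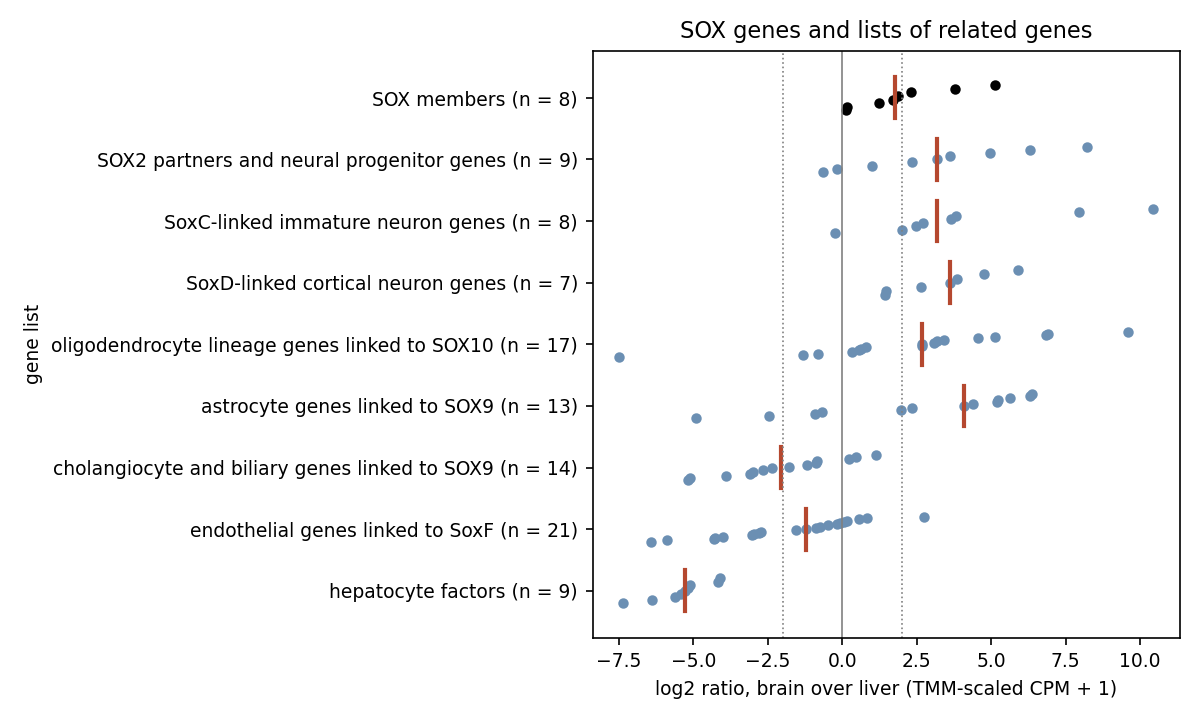
Log2 ratio, brain over liver, of TMM-scaled CPM for each gene that passed 1 CPM (points), by list, with the list median (bar) and dotted lines at 2 and -2. The points of the SOX members lie between 0.12 and 5.14, the neural lists have medians above 2, and the hepatocyte factors all lie below -2.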

How the data were processed

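The authors deposited raw counts for each gene row, with 1 column for brain and 1 for liver. Alignment was to Sscrofa10.2 with TopHat, per the submitters' processing notes. The counting program, its strand setting and the treatment of multiply aligned reads are not given in the labels or the table. The deposited gene length, another value of the authors' table, is in bp.

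Rows were named by the table, or by gene number, accession or unique synonym in a RefSeq gene table of Sscrofa11.1, used for names and to read chromosome names. Of 21817 rows, 6999 stayed unnamed and entered all totals. TMM scaling was done in edgeR 4.0.16, so 1 CPM equals 34.94 counts in brain and 21.61 in liver. DESeq2 1.42.0 gave median-of-ratios factors only. Fold intervals are exact conditional binomial and count intervals exact Poisson (scipy 1.17.1), at 95%. For lower-bound folds and 1 alternative list median, a count of 0 was put at a floor of 3 counts, equal to 0.0859 CPM in brain and 0.139 in liver. Log2 ratios otherwise keep it at 0.

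The members and lists were chosen with earlier results of these data known. The text names every SOX gene, and from each related list up to 4 genes of highest mean level plus genes called against the list's median. Further genes are said to be named after their values were seen. Sequences were not analysed here.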

Additional observations from a re-analysis of the deposited data

How the results depend on the processing

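The 4-fold rule with TMM called 3 SOX genes higher in brain (SOX2, SOX4 and SOX11) and 0 in liver. Brain calls numbered 6 with plain library size, 5 with a pseudocount of 0.1 and 6 at 2-fold, and 2 at 8-fold, where SOX4 was no longer called. It was 3 with median-of-ratios scaling, TMM without the 50 highest genes, a pseudocount of 5, no filter, a filter at 5 CPM, the highest row per gene, and SOX6 without its hyphenated row. The number in liver was 0 in all of these. None of the 8 members' log2 ratios changed sign under these settings. Over all genes, calls in brain went from 2279 to 3820 with plain library size and 3185 with a pseudocount of 0.1. They were 1231 with a pseudocount of 5, 4283 at 2-fold and 1330 at 8-fold. Calls in liver went from 1767 to 953, 2322, 1116, 3800 and 887 under the same settings in that order. SoxC-linked calls in brain went from 7 to 4 at 8-fold, SoxD-linked from 5 to 3 with a pseudocount of 5, bile duct calls in liver from 7 to 4 at 8-fold, and oligodendrocyte calls in liver from 1 to 2 at 2-fold. SOX21 and SOX12 lost their calls with a pseudocount of 5 and at 8-fold, and CLDN5 at 8-fold. No paired analysis was possible because each tissue has 1 library. Depth limits SOX10 and SOX2 in liver (3 counts each) and SOX17 in both libraries.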
